A study of Mus musculus with 60 samples.

Results

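The non-coding RNA of whole liver in mice deficient for Ftsj1 was described from libraries of total RNA depleted of ribosomal RNA. All named entries of the 4 liver tables of these libraries were taken, 18439 of the 368645 named entries in the 25 tables of the series, with no choice by measured value. They comprised 10040 long non-coding RNAs (lncRNAs), 1482 small nucleolar RNAs (snoRNAs), 1380 small nuclear RNAs (snRNAs) and 5537 tRNA entries. The comparison was Ftsj1_DF, the Ftsj1-deficient genotype, against WT, with 3 libraries of each genotype. All mice were untreated males aged 4 months, fed freely, and the labels name 2 sets of brothers among the 6 animals, each holding both genotypes. The sources used here do not give the allele behind Ftsj1_DF, its strain or whether any cells retain the enzyme. Brain, heart, kidney and spleen of the same mice, and poly-A libraries of the same organs, make up the rest of the 60 libraries.

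Ftsj1 encodes a methyltransferase that places a methyl group on the ribose of bases in the anticodon loop of several tRNAs, so that tRNA is its direct substrate. LncRNAs are long transcripts without a known protein product, many of them restricted to 1 tissue and transcribed beside or across a coding gene. SnoRNAs guide the modification and cleavage of ribosomal RNA, and snRNAs form the core of the spliceosome. Liver controls blood glucose and lipids and holds many transcripts that follow feeding, fasting, insulin and glucocorticoids.

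Each deposited table holds, per feature, the mean of 6 libraries (normalised read count), a log2 fold change of Ftsj1_DF minus WT with its standard error (SE), and DESeq2's p and adjusted p. A feature was called when its deposited adjusted p was under 0.05. Summed mean levels were 7861745 for lncRNAs, 329633 for snoRNAs, 479980 for snRNAs and 4648064 for tRNA entries. Features with 1 read in 1 library show what a read is worth, and from this the relative depth of the libraries was read: lncRNA size factors were 1.02 to 1.58 in Ftsj1_DF and 0.628 to 1.17 in WT, and the mean was higher in Ftsj1_DF in all 4 tables. Whole reads per library were then solved from the deposited level and fold change for 75 of 77 features tried, by a search near the implied group levels. Libraries are called a, b and c within a genotype, deepest first, separately in each table; which mouse a letter stands for is unknown. The replicates are separate mice, and an exact two-sided permutation test of 3 against 3 cannot give a p below 0.1, so that tests rest on DESeq2's fit across all features of a table.

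In the poly-A libraries of the same livers, Ftsj1 was at 8.79% of WT by the authors' deposited table (log2 fold change -3.51, SE 0.15, adjusted p 4.65e-115). All 6 hepatocyte markers were abundant, at log2 fold changes of -0.40 to 0.13, and none passed. Apoa1 came nearest, at -0.35 with a DESeq2 adjusted p of 0.052. Of 18263 tested genes 2.29% were called (0.887% higher, 1.41% lower in Ftsj1_DF). Among markers of other cells, all 5 for Kupffer cells were higher in Ftsj1_DF, by 0.41 to 0.65 on the log2 scale. Of these 1 passed, Vsig4, which rose by 0.65. The 4 neutrophil markers were higher by 0.65 to 0.99, and 2 passed, S100a8 and S100a9, which rose by 0.99 and 0.88. Of 3 tested fat cell markers 1 passed, Cidec, which fell by 0.75, all by the authors' deposited table. Cidec had a mean level of 1068, and Adipoq (98.9) and Plin1 (91.6), also lower in Ftsj1_DF, did not pass. Of 6 exocrine pancreas markers, 1 (Cela2a) is listed at 0 and none of the 4 tested passed, yet their summed level computed from that table was 399133 in Ftsj1_DF against 11189 in WT. Ftsj1_DF library b held most reads of 4 lncRNAs. It had 730 of the 776 reads of 1810018F18Rik, 244 of the 264 of Gm43525, 400 of the 561 of Gm10503 and 169 of the 229 of Gm42705. None of these 4, named after their values were seen, was called. Other uncalled lncRNAs with large changes were not solved, among them the falls of Gm48099 (-2.59 ± 2.01, SE) and D130009I18Rik (-2.13 ± 1.59, SE). Whether other libraries stood apart in a like way is therefore unknown. The part of pancreas RNA and of the other cell types in the calls was not tested. Over the 32 called lncRNAs with solved reads, the median size of the log2 ratio of means was 1.38, and 1.44 without library b. In whole tissue, fewer cells of a type and less RNA per cell cannot be told apart.

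Of 3638 lncRNAs that the authors tested, 37 were called, 1.02%: 10 rose in Ftsj1_DF (0.275%) and 27 fell (0.742%), while 282 of 8606 had an unadjusted p under 0.05 (3.28%). The called lncRNAs had a median fold change of 1.32 in size on the log2 scale and mean levels from 29.4 for Gm28548 to 6235 for Gm50323. Over the 4557 lncRNAs with a mean level of 10 or more the median log2 fold change was -0.02, with 5th and 95th percentiles of -0.71 and 0.67. The nearest lncRNAs on each side of the threshold were Cyp2c53-ps, with an adjusted p of 0.0495 in the authors' deposited table, and Gm44787, with 0.0507. DESeq2 refers its statistic to a normal distribution. With a t distribution of 4 degrees of freedom, the number of libraries less the genotypes, no lncRNA and no tRNA entry passed.

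**Figure D1:**
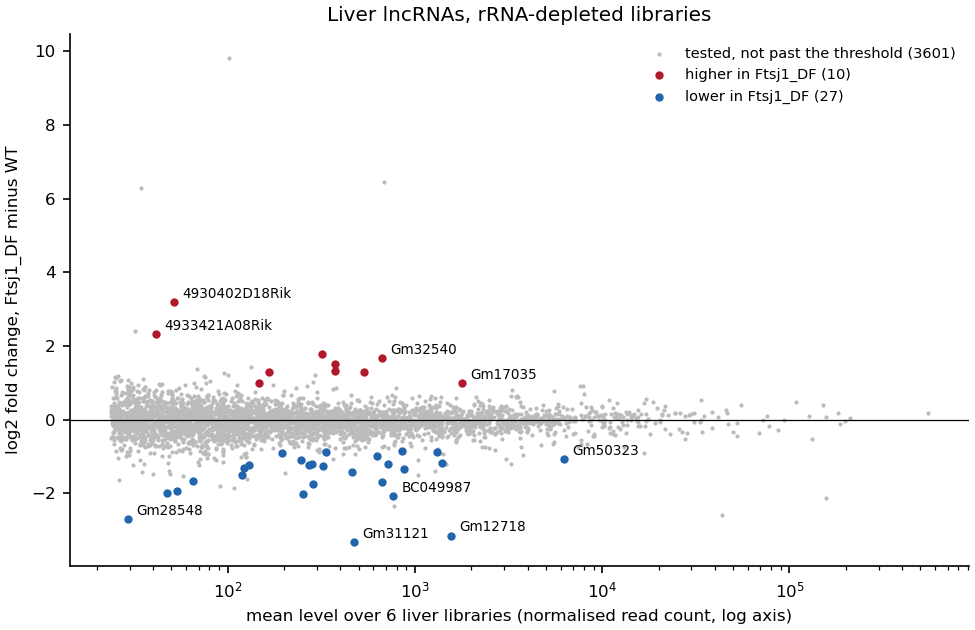
Mean level over the 6 liver libraries (x axis, normalised read count, log axis) against the log2 fold change of Ftsj1_DF minus WT (y axis) for the 3638 tested lncRNAs. The 10 lncRNAs that rose (red) and the 27 that fell (blue) lie outside a dense band around 0; the grey points at the top are lncRNAs with very large errors, among them those read mostly in Ftsj1_DF library b.

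The largest falls were those of Gm31121 and Gm12718, a pair of intergenic lncRNAs of no described function. Gm31121 had 105, 120.3 and 32.4 normalised reads in Ftsj1_DF libraries a, b and c and 643, 1170.0 and 775 in the WT libraries. Every WT library exceeded every Ftsj1_DF library at least 5-fold. Its means were 86.0 ± 47.0 (SD, n = 3) and 863 ± 274 (SD, n = 3), and the authors' deposited table gives a log2 fold change of -3.32 ± 0.40 (SE) with adjusted p 3.65e-13. For Gm12718 reads per library were not sought, as its mean level was too high. Its level implied by the authors' deposited table was 317 in Ftsj1_DF and 2814 in WT, a log2 fold change of -3.15 ± 0.38 (SE) with adjusted p 3.67e-13.

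BC049987, an intergenic lncRNA, lies head to head with Treh, which encodes trehalase, a sugar-cleaving enzyme of the brush border. BC049987 had 201, 524 and 147 normalised reads in Ftsj1_DF and 1041, 1727 and 934 in WT. The groups did not overlap, though Ftsj1_DF library b was well above the other two. Its means were 291 ± 204 (SD, n = 3) and 1234 ± 430 (SD, n = 3), and the authors' deposited table gives -2.09 ± 0.41 (SE) with adjusted p 0.000165. Without library b the log2 ratio of means was -2.83. Treh mRNA also fell by 1.65 on the log2 scale (SE 0.34, adjusted p 0.000283) in the authors' deposited table of poly-A libraries. Both start sites are shown because the pair moved together: each window is a RefSeq promoter of GRCm38.p6, running from 250 bases before to 50 after the start, BC049987 at chr9:44672211-44672510 on the minus strand and Treh at chr9:44672983-44673282 on the plus strand. Capitals mark a TATAAA match, the only match to the 4 motifs searched in a called lncRNA.
BC049987: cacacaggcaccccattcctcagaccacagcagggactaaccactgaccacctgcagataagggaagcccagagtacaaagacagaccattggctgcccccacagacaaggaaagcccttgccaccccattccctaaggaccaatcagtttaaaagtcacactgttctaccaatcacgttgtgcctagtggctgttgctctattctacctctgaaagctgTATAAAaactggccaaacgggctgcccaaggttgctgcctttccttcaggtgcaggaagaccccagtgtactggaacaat
Treh: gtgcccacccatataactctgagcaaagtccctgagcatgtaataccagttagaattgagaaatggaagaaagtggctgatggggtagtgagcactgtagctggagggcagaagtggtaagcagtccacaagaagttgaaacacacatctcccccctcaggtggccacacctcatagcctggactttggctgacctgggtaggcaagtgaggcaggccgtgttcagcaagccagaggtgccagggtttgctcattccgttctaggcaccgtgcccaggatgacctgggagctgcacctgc
The motifs searched on both strands were GTAAACA of forkhead factors, the E-box core CACGTG, the cyclic AMP element TGACGTCA and the TATA box TATAAA, with no overlapping matches here. They occur in 3.65%, 7.15%, 1.79% and 13.6% of all 32851 RefSeq promoters of that length. Of the 14 called lncRNAs with such a window, 1 held TATAAA and none held the others. Median GC content was 52.2% over the 20 windows of these genes and 52.7% over all.

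Another pair of falls lay in 1 stretch, with Tbk1, a kinase of innate immune signalling, as the nearest coding gene of Gm35696 and Rassf3, which encodes a Ras-association domain protein, as that of Gm40787. Gm35696 had 519, 512 and 457 normalised reads in Ftsj1_DF and 1079.7, 1254 and 1431 in WT. Every WT library was more than 2-fold higher than every Ftsj1_DF library. The authors' deposited table gives -1.34 ± 0.22 (SE, adjusted p 9.26e-07). Gm40787, in the same stretch, had 216, 219 and 132 in Ftsj1_DF and 446, 462 and 457 in WT, again with no overlap, and a deposited log2 fold change of -1.26 ± 0.27 (SE, adjusted p 0.000608) in the authors' deposited table. Tbk1 mRNA, 20.4 kb from Gm35696, was at 0.18 ± 0.12 (SE, adjusted p 0.642) and did not pass in the authors' deposited table of poly-A libraries. Rassf3 mRNA fell by 0.63 on the log2 scale in the authors' deposited table of poly-A libraries (SE 0.12, adjusted p 0.000101). Gm48591, an lncRNA that overlaps Rassf3, did not pass, at -0.75 ± 0.23 (SE, adjusted p 0.0721) in the authors' deposited table.

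Several of the remaining falls also sat next to a coding gene with a lower mRNA. Gm32468 had 310.4, 281 and 358 normalised reads in Ftsj1_DF and 1126, 1357 and 582 in WT. The WT libraries differed among themselves more than 2-fold, with library c lowest, but all lay above Ftsj1_DF. Its neighbour Cfap54, a gene of the motile cilium, fell by 1.07 on the log2 scale in poly-A libraries of the authors' deposited table. Gm28548 had 10.8, 1.58 and 10.8 normalised reads in Ftsj1_DF and 32.4, 52.2 and 68.4 in WT, and its neighbour Acpp, an acid phosphatase, fell by 1.58 in the authors' deposited table. F730035M05Rik, on the strand opposite to the liver glycogen phosphorylase gene Pygl, had 176, 104 and 111 in Ftsj1_DF and 360.5, 431 and 533 in WT. Its change was -1.75 ± 0.30 (SE, adjusted p 2.10e-06) in the authors' deposited table, whereas Pygl mRNA did not pass there (-0.34 ± 0.12, adjusted p 0.0965). Gm21989 and Gm30124 both overlap Asap2 on its own strand and were at -1.52 and -1.198, both called, and Asap2 mRNA, at 0.42 ± 0.26 (adjusted p 0.627), did not pass in the authors' deposited table. Gm50323, the most abundant called lncRNA, fell to an implied level of 3999 from 8471, a log2 fold change of -1.08 ± 0.20 (SE) in the authors' deposited table.

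Among the other falls, Gm5893, of no described function, had 21.6, 23.0 and 12.8 normalised reads in Ftsj1_DF and 74.1, 92.4 and 62.1 in WT. Gm11280, which shares a promoter region with the zinc finger gene Zfp184, had 19.04, 32.5 and 14.7 in Ftsj1_DF and 67.3, 105.8 and 81.2 in WT. Gm44507 had 40.0, 192 and 65.8 in Ftsj1_DF and 453, 548 and 208 in WT, so that its groups nearly met. Without Ftsj1_DF library b its log2 ratio of means was -2.93 in place of -2.02. Several overlap or neighbour a gene whose mRNA fell as well: Gm41668 and Ttc39c, A430088P11Rik and Fam83f, 4930534D22Rik and the fatty acid hydroxylase Cyp2u1, Gm16170 and the ubiquitin ligase Trim7. Gm41668 had 248, 325 and 182 in Ftsj1_DF and 588, 855 and 575 in WT. A430088P11Rik had 68.6, 61.0 and 81.5 in Ftsj1_DF and 128, 219.5 and 175 in WT. 4930534D22Rik had 312, 593 and 399.5 in Ftsj1_DF and 784, 1245 and 961 in WT. In these 3 no library of a group reached into the other. Their mRNAs Ttc39c, Fam83f, Cyp2u1 and Trim7 fell, and their log2 values of change were -0.86, -1.93, -0.96 and -0.82 in the authors' deposited table of poly-A libraries. By contrast 0610040F04Rik, opposite to the clock repressor Bhlhe40, fell by 1.17, while Bhlhe40 mRNA was at -1.30 ± 0.54 (SE, adjusted p 0.263) and did not pass in the authors' deposited table. Gm50044, a scarce transcript in liver with a level of 65.5, had levels of 12058 in brain and 15511 in kidney and was at 0.00 and -0.18 there by the authors' deposited table. Cyp2c53-ps, a cytochrome pseudogene inside a family of near-identical genes, had 163, 126.7 and 115.8 in Ftsj1_DF and 240.3, 250.3 and 280.1 in WT, and its reads cannot be assigned with certainty.

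**Figure D2:**
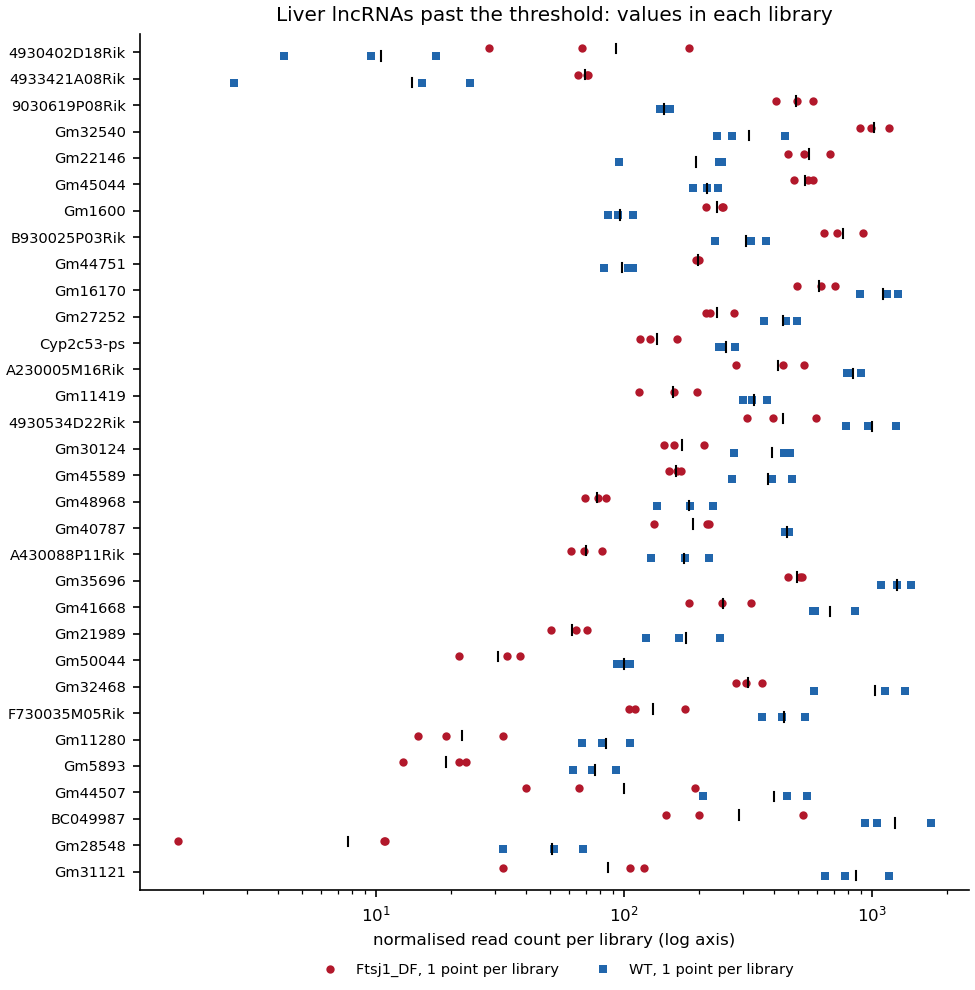
Normalised read count in each library (x axis, log axis) of the 32 called lncRNAs whose reads could be solved (y axis), with red circles for the 3 Ftsj1_DF libraries, blue squares for the 3 WT libraries and black ticks for the group means. These lncRNAs were chosen by their test, as 1.02% of those tested were, so the separation of their groups is a description; the spread within a group is widest in 4930402D18Rik, Gm28548 and 4933421A08Rik.

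Among the rises, 3 intergenic lncRNAs came from 1 stretch, with Irs2 as nearest coding gene, 93.1 to 118.5 kb away. Irs2 encodes an adaptor protein of the insulin receptor. Gm32540 had 993, 895 and 1169 normalised reads in Ftsj1_DF and 443, 272 and 237 in WT. Gm45044 had 577, 483 and 553 in Ftsj1_DF and 239, 190.1 and 215 in WT. B930025P03Rik had 722, 640.4 and 914 in Ftsj1_DF and 372, 233 and 325 in WT. In each of the 3 the lowest Ftsj1_DF library lay above the highest WT library, which was library a each time. By the authors' deposited table they rose by 1.68 ± 0.28, 1.32 ± 0.23 and 1.29 ± 0.27 on the log2 scale (SE, adjusted p 2.10e-06, 9.34e-06 and 0.000366). Irs2 mRNA rose too, by 1.01 ± 0.21 (SE, adjusted p 0.00032) in the authors' deposited table of poly-A libraries. Another 4 lncRNAs tested there, 4833411C07Rik, 3930402G23Rik, Gm2814 and 9530052E02Rik, did not pass, at 0.78, 1.26, 0.58 and 0.61 on the log2 scale, with adjusted p from 0.170 upward in the authors' deposited table. The start sites of this group are shown because its members moved together. They are RefSeq promoters of GRCm38.p6 on the minus strand, at chr8:10866228-10866527 for Gm32540, chr8:10882405-10882704 for B930025P03Rik and chr8:11008880-11009179 for Irs2. Capitals mark a match to CACGTG, the E-box core, which of the 3 windows was found in that of Irs2.
Gm32540: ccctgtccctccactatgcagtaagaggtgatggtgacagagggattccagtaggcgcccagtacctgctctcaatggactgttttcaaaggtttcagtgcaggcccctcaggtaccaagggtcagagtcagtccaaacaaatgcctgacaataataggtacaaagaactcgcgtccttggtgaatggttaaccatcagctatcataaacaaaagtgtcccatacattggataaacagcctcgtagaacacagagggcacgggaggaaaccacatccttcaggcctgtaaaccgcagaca
B930025P03Rik: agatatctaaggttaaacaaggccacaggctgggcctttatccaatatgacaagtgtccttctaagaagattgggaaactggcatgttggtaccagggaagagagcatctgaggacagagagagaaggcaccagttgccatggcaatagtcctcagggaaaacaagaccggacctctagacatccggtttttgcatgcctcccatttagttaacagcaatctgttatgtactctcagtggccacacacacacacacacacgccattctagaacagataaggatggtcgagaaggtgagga
Irs2: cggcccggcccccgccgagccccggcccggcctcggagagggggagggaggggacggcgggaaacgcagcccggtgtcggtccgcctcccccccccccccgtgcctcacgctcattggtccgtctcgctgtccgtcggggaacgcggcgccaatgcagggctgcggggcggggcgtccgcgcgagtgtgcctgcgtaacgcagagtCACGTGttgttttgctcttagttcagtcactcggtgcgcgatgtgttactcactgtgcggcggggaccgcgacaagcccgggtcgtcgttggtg
GC content was 49.3% and 47.3% in the windows of the lncRNAs and 72.0% in that of Irs2.

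Other rises were single. 9030619P08Rik, annotated as a transcribed pseudogene, had 409, 496 and 577 normalised reads in Ftsj1_DF and 143, 139 and 153 in WT. The WT libraries were close to each other, at 145 ± 6.98 (SD, n = 3), and all Ftsj1_DF libraries were over 2-fold higher, at 494 ± 84.2 (SD, n = 3). The authors' deposited table gives 1.77 ± 0.25 (SE, adjusted p 2.32e-09). As a pseudogene it may share reads with its parent gene family, so this value is uncertain. Gm22146 is a short RNA entry of miscellaneous type on the strand opposite to Fkbp5, a co-chaperone of the glucocorticoid receptor. It had 677, 456 and 529 in Ftsj1_DF and 247, 95.05 and 242 in WT, without overlap, and rose by 1.51 ± 0.35 (SE, adjusted p 0.0023) in the authors' deposited table. Fkbp5 mRNA rose by 0.75 there, in poly-A libraries of the authors' deposited table. The largest rises were of scarce transcripts. 4930402D18Rik, antisense to A1bg, had 67.3, 28.5 and 183 normalised reads in Ftsj1_DF and 4.26, 17.4 and 9.55 in WT. The groups stayed apart, but library c alone set much of the size: the log2 ratio of means was 3.16 with it and 2.20 without it. 4933421A08Rik had 65.4, 70.5 and 71.7 in Ftsj1_DF and 15.3, 2.68 and 23.9 in WT, and its log2 ratio was 2.31, or 2.94 without WT library c. Gm44751 and Gm17035 rose by 1.00 and 0.99 in the authors' deposited table, next to Ctsc, a lysosomal peptidase, and opposite to Ndrg1, a stress-responsive gene, whose mRNAs rose by 0.76 and 1.29 in that of the poly-A libraries. The sources used here do not say whether the counting used the strand of reads, so values of lncRNAs that overlap a coding gene, on either strand, are uncertain.

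This pairing with neighbours was counted over all lncRNAs. Nearest coding genes within 200 kb were taken from GENCODE M21 or RefSeq on GRCm38, which placed 35 of the 37 called lncRNAs. Their nearest coding gene was tested in the poly-A libraries for 29, and it was called for 14 (48.3%), in the same direction as the lncRNA in all 14. Counted once each, 12 of 26 such genes were called (46.2%). The same count over all tested lncRNAs was 95 of 2901 (3.27%), or 71 of 2374 distinct genes (2.99%). Of those 95, 83 had the direction of their lncRNA. Among tested nearest genes, called or not, the direction matched for 22 of 29 (75.9%), against 59.8% over all tested lncRNAs. The 12 genes were Irs2, Fkbp5, Ctsc and Ndrg1, which rose, and Cfap54, Treh, Ttc39c, Rassf3, Acpp, Fam83f, Cyp2u1 and Trim7, which fell. Of the 14 lncRNAs, 5 lie on the strand opposite to the gene. By type, 19 of 946 tested intergenic lncRNAs and 7 of 1683 tested antisense lncRNAs were called. No test of these shares was made.

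The same livers were also read by poly-A libraries, which gives a second measurement of the same animals. Of the 37 called lncRNAs, 22 had a mean level of 10 or more there, and all 22 had the same sign. DESeq2 tested 21 of them and called 14, against 49 of the 1552 lncRNA names tested in that table (3.16%). In poly-A libraries, the authors' deposited table gives -3.18 ± 0.33 for Gm31121, -2.64 ± 0.26 for Gm12718, -3.51 ± 0.63 for Gm28548 and 1.68 ± 0.27 for Gm32540 (SE). A difference between the kinds of library was tested for 1856 lncRNAs, and none passed (a normal test of the difference of log2 fold changes, adjusted by Benjamini-Hochberg). The largest difference among called lncRNAs was 0.99, for 4933421A08Rik. Another 11 called lncRNAs, among them 9030619P08Rik, Gm22146 and Gm17035, are listed at 0 in the poly-A table, and 4 had a level under 10. Both kinds came from the same mice, so they share the animals' own differences. The test of the difference took their errors as independent, so the error of a difference may be too large. A lack of passes therefore does not show equal changes.

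**Figure D3:**
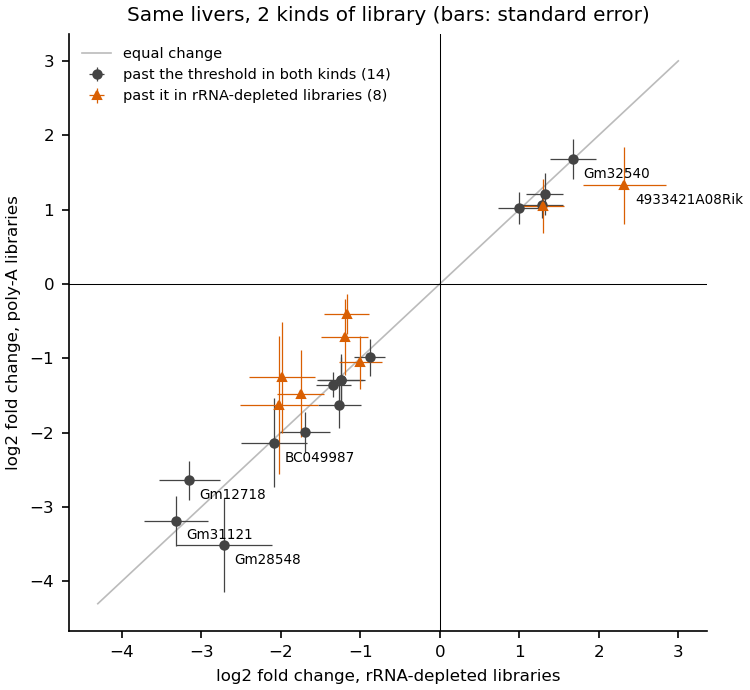
Log2 fold change in rRNA-depleted (x axis) and poly-A libraries (y axis) of the same livers for the 22 called lncRNAs with a mean level of 10 or more in both; bars are SE and the grey line marks equal change. All 22 points share their sign, and 14 (dark circles) passed in both kinds of library.

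The called changes were then set against the other organs, all in rRNA-depleted libraries. For 4554 lncRNAs with a mean level of 10 or more in liver, the log2 fold change in liver was compared with the weighted mean of the other 4 organs, and 23 differed (0.505%, normal test, adjusted by Benjamini-Hochberg). Of the 37 called in liver, 21 were among these. Gm31121 was -0.13 ± 0.23 (SE) over the other organs, so that the difference was -3.19 ± 0.46 (SE, adjusted p 9.90e-09). That mean covers unlike values: -1.43 ± 0.58 (SE) in heart, -0.57 in spleen, 0.64 in brain and 0.40 in kidney by the authors' deposited table. Mean levels of Gm31121 in these organs were 31.3 to 47.7, against 474 in liver. Gm12718 was -0.03 ± 0.16 over the other organs, with a difference of -3.12 ± 0.41 (SE, adjusted p 2.42e-10). Gm32540 was 0.11 ± 0.20 there, with a difference of 1.56 ± 0.35 (adjusted p 0.00377). For the other 16, Gm35696, BC049987, Gm45044 and Gm32468 among them, a difference from the other organs was not shown. BC049987 had a mean level of 2100 in kidney, above liver, and was -0.54 ± 0.15 (SE) there with adjusted p 0.0574 in the authors' deposited table.

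The called liver lncRNAs were also read in the other organs. Of the lncRNAs tested there, 1 was called in brain (0.0108%), 40 in heart (0.681%), 15 in kidney (0.41%) and 0 in spleen (0%). All 37 were tested in brain and spleen, 28 in heart and 19 in kidney, and 1 was called, in heart. This was Gm22146, which fell by 1.27 on the log2 scale (SE 0.32, adjusted p 0.0192) in the authors' deposited table, opposite to liver. Its log2 fold change was -0.37, -0.33 and -0.69 in brain, kidney and spleen of the authors' deposited table, and liver differed from the other organs by 2.16 ± 0.37 (SE, adjusted p 7.84e-06). The sign of the 37 matched liver for 16 in brain, 23 in heart, 22 in kidney and 21 in spleen, and the median size of their log2 fold change there was 0.34, 0.55, 0.26 and 0.10. Organs of a mouse are not independent, and the p-values of these differences are approximate.

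**Figure D4:**
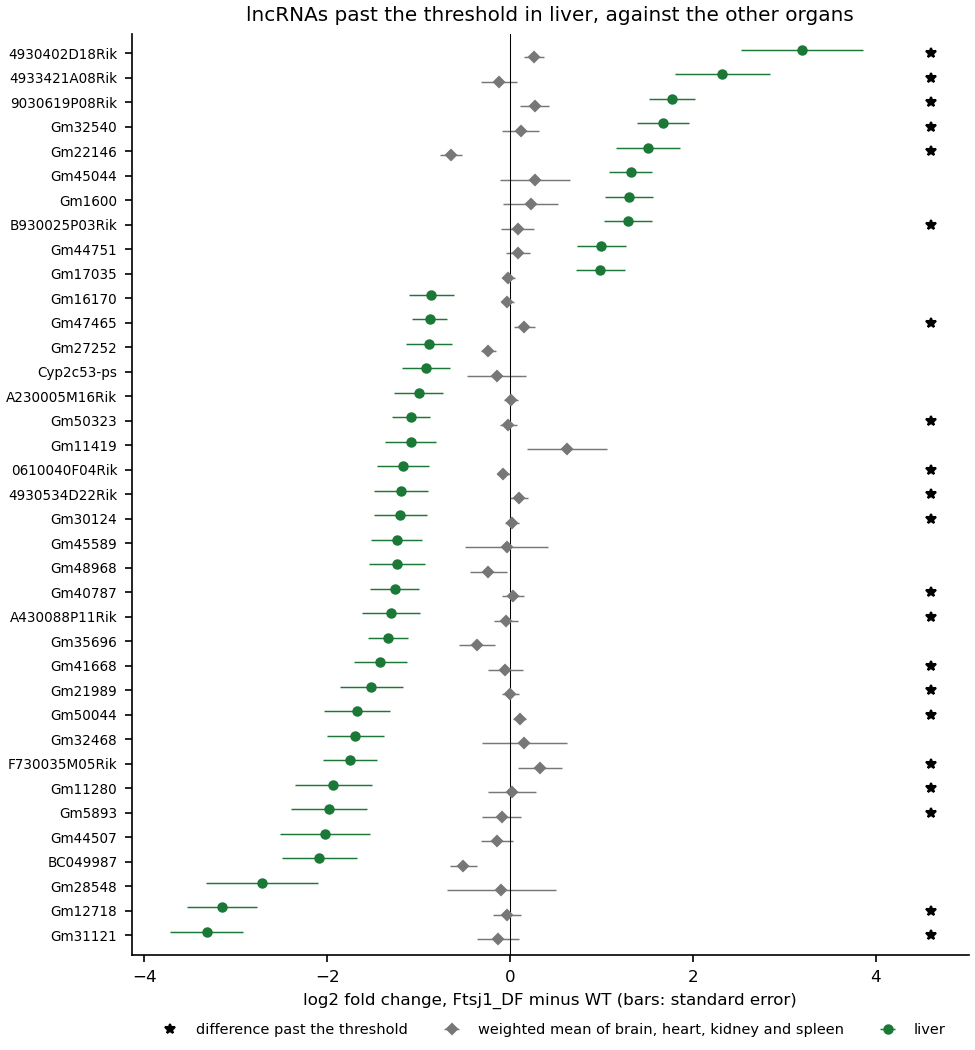
Log2 fold change (x axis, bars SE) of the 37 called lncRNAs (y axis) in liver (green circles) and as the weighted mean of brain, heart, kidney and spleen (grey diamonds). Stars mark the 21 whose difference passed; most grey points lie near 0, and Gm22146 lies on the opposite side.

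Of 51 tested lncRNAs with a described role, in 5 lists, none was called by DESeq2 and 1 had an unadjusted p under 0.05, where 1.02% of all tested lncRNAs were called. The lists held 8 imprinted lncRNAs above level 10 (median log2 fold change 0.07), 8 nuclear and X-linked lncRNAs (0.03), 18 snoRNA host genes (0.03), 9 liver-enriched lncRNAs (-0.09) and 9 damage-related lncRNAs (-0.03). Mirg, of the imprinted list, had no adjusted p. H19, an imprinted transcript of fetal liver, had 16.5, 31.7 and 40.2 normalised reads in Ftsj1_DF and 34.9, 14.7 and 39.8 in WT, with full overlap. Meg3, another imprinted transcript, had 199, 241 and 205 in Ftsj1_DF and 209.6, 167 and 216 in WT. Malat1, a nuclear RNA of speckles, was at 0.05 on the log2 scale (95% interval -0.33 to 0.43), and Norad, a decoy of Pumilio proteins, at 0.11 (-0.29 to 0.52), in intervals computed from the authors' deposited table. Neat1, the scaffold of paraspeckles, was at 0.08 ± 0.26 (SE) here but fell by 0.86 in poly-A libraries (adjusted p 0.0287) of the authors' deposited table. Gm15441, a liver lncRNA antisense to Txnip, was at 0.57 ± 0.24 (SE, adjusted p 0.517) here and rose by 1.76 ± 0.41 (SE, adjusted p 0.00206) in poly-A libraries, both in the authors' deposited table. For neither did the difference between the kinds of library pass, which does not show that the changes were equal. Rmrp, the RNA of RNase MRP, was at -0.53 ± 0.45 and the telomerase RNA Terc at -0.34 ± 0.93 (SE) in the authors' deposited table.

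No snoRNA was called: 0 of 599 tested by DESeq2 (0%), with 8 at an unadjusted p under 0.05 (1.34%). The 265 snoRNAs with a mean level of 10 or more had a median log2 fold change of -0.03 and a median SE of 0.55, so single snoRNAs had to change several-fold to be seen. The 67 C/D box snoRNAs, which guide ribose methylation, had a median of 0.06, and the 39 H/ACA box snoRNAs, which guide pseudouridylation, had -0.23, with 27 of the 39 below 0. The listed snoRNAs of ribosomal RNA cleavage with a mean level of 10 or more were all below 0, 9 of 9, with a median of -0.28. Among these, Snord3a (U3) was at -0.17 (95% interval -0.78 to 0.43), Snord118 (U8) at -0.58 (-1.60 to 0.43) and Snora73b at -0.28 (-1.20 to 0.63), computed from the authors' deposited table. The intervals all include 0. That list missed other U3 copies, Snord3b1, Snord3b2, Snord3b3 and Snord3b4. These were above 0, at 0.32, 0.38, 0.31 and 0.23 in the authors' deposited table, and none was called. Their mean levels were 14643, 5615, 5079 and 3856, against 5133 for Snord3a. Of the snoRNAs in the Gas5 host gene, Snord47, Snord78 and Snord80 were at -0.04, 0.12 and -0.43, and Gas5 itself at 0.06, in the authors' deposited table. SnoRNA reads in a library of this kind can include those of the host transcript's intron.

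No snRNA was called either: 0 of 751 tested by DESeq2 (0%), with 5 at an unadjusted p under 0.05 (0.666%), all 5 at mean levels under 10. Of these, Gm26180 had 45 of its 49 reads in Ftsj1_DF library c. The 196 snRNAs with a mean level of 10 or more had a median log2 fold change of -0.09 and a median SE of 0.64. All 4 genes named as U1, the RNA that recognises the start of introns, were below 0, at -0.81 to -0.32, and none passed. Most U1 reads went to unnamed copies. Gm22513 had a mean level of 240795 and a log2 fold change of -0.52 ± 0.80 (SE) in the authors' deposited table, while Rnu1a1 had a level of 942 and -0.81 ± 0.72 (SE). The copies are shown because they differ so little that reads can hardly be assigned to 1 of them. Sequences are from GENCODE M21 transcripts on GRCm38, and capitals mark the bases that differ from Rnu1a1 for U1 and from Gm24265 for the U4-like pair.
Rnu1a1: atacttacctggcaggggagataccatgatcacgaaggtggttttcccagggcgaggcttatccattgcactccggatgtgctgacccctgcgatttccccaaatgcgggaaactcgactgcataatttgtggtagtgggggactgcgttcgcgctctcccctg
Gm22513: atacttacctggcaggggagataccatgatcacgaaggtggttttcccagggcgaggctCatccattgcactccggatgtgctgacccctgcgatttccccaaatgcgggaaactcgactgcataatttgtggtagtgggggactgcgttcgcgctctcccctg
Gm23238: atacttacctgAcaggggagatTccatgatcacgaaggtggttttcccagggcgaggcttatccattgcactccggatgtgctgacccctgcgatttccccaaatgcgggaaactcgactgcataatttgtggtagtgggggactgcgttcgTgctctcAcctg
Gm24265: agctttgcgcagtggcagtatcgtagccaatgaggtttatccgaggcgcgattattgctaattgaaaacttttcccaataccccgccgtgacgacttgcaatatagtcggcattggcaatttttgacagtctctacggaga
Gm24407: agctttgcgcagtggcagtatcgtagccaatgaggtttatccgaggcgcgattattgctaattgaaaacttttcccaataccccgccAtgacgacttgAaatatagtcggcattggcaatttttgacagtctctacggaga
Counted from the first base, Gm22513 differs from Rnu1a1 by T60C, and Gm23238 by G12A, A23T, C153T and C160A. Gm24407 differs from Gm24265 by G88A and C99A, with Gm24265 at -0.19 ± 0.44 and Gm24407 at -0.16 ± 0.42 (SE) in the authors' deposited table. Rnu2-10 (U2) was at 0.20, Rnu5g (U5) at 0.51 and Rnu12, of the minor spliceosome, at 0.04, none of them called in the authors' deposited table. Differences between organs were tested for 264 snoRNAs and 196 snRNAs, and none passed (0% of each, with 4 and 2 at an unadjusted p under 0.05).

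Of 466 tested tRNA entries 28 were called, 6.01%: 13 rose (2.79%) and 15 fell (3.22%), while 104 of 3359 had an unadjusted p under 0.05 (3.1%). The entries carry RNAcentral identifiers, which the files do not pair with an amino acid or anticodon, and many share their reads. The 3359 entries with reads held 2294 distinct sets of values, and the 28 called entries held 16, which fell into 6 groups of nearly equal level and change. They are therefore not 28 separate tRNAs.

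The rise was a single group of 13 entries, among them URS00002FB4A7_10090 and URS00001B629B_10090. Their mean levels were 10756 to 11393, and the levels implied by the authors' deposited table were 17939.6 to 18929 in Ftsj1_DF and 3539 to 3858 in WT. Log2 fold changes were 2.29 to 2.34 with SE of 0.61 to 0.62 and an adjusted p of 0.00575 throughout the authors' deposited table. Reads per library were not sought at this level, so whether 1 library set this rise is unknown. Another entry of similar level was at 2.39 with SE 1.02 and did not pass. Other abundant groups had smaller errors: the highest, 9 entries at levels of 260861 to 271163, was at -0.12 to -0.11 with SE of 0.30 in the authors' deposited table. In the other organs the 13 entries were at 0.40 to 0.42 in brain, -0.73 to -0.70 in heart, 0.18 to 0.22 in kidney and 0.28 to 0.29 in spleen. None was called in brain, heart or spleen, and in kidney, where their SE was 0.99 to 1.04, the authors' deposited table gives them no p.

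The falls were of scarce entries. The largest was that of URS000005A7A9_10090, with 1.78, 8.29 and 6.85 normalised reads in Ftsj1_DF and 31.4, 38.7 and 40.8 in WT. Every WT library lay at least 3-fold above every Ftsj1_DF library. Its log2 fold change was -2.76 ± 0.69 (SE, adjusted p 0.00575) in the authors' deposited table. URS00006BA21D_10090, 1 of 8 entries with nearly the same reads, had 29.7, 107.7 and 84.2 in Ftsj1_DF and 175, 287 and 207 in WT. Ftsj1_DF library a was lowest, and the groups did not overlap. This group was at -1.62 to -1.60 with an adjusted p of 0.0172 in the authors' deposited table. The other falls were 2 entries at a level of 303 (-1.36), 3 entries at 96.3 to 102 (-1.35 to -1.32) and 1 entry at 24.2 (-2.10), also by the authors' deposited table. Without WT library c, the log2 ratio of means of that last entry was -1.51. Reads were solved for all 15 entries that fell.

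The tRNA calls depended on how many tests were counted. Adjusted over all 3359 entries with a p, 14 remained, 13 that rose and 1 that fell, and adjusted over the entries of all 5 organs none did. Counting entries of equal values once left 15 called sets, 8 that rose and 7 that fell. None of 664 tRNA entries differed between liver and the other organs (0%, 69 at an unadjusted p under 0.05), and the smallest adjusted p among called entries was 0.0686. Over the 669 entries with a mean level of 10 or more the median log2 fold change was 0.06, and over the 76 with a level of 10000 or more it was 0.55. These held 545 and 34 distinct sets of values, and shared values count once per entry in the medians. The second median is thus not that of separate tRNAs. The libraries count reads of fragmented total RNA, so these values describe reads and not tRNA molecules.

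**Figure D5:**
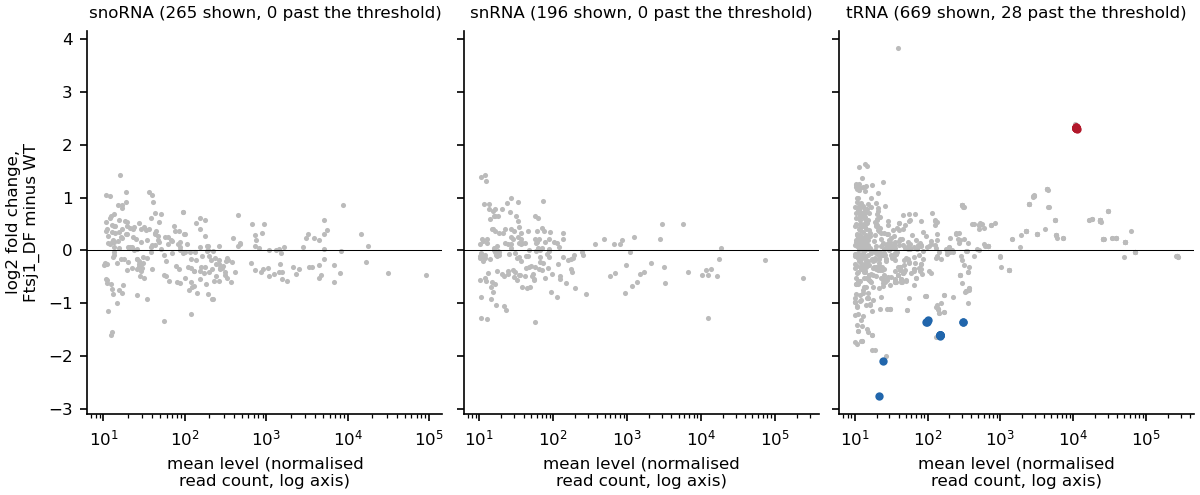
Mean level over the 6 liver libraries (x axes, normalised read count, log axis) against the log2 fold change of Ftsj1_DF minus WT (y axis) for snoRNAs (265), snRNAs (196) and tRNA entries (669) with a mean level of 10 or more. No point is coloured in the first panels; in the tRNA panel the 13 entries that rose (red) overlie each other at levels of 10756 to 11393, and the 15 that fell (blue) lie at levels of 21.3 to 303.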

How the data were processed

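Counts per library were not at hand: the files hold the authors' comparison per organ and kind of feature. The authors used GRCm39, featureCounts of Subread 2.0.3 and DESeq2, per the submitters' processing notes. The sources used here name no aligner, annotation or strand setting. The libraries were made with a stranded total RNA kit from tissue frozen on dry ice and phenol-extracted RNA, per the labels' protocols. Mean levels are a signal deposited by the authors, DESeq2's mean of normalised counts over 6 libraries. Fold changes and their errors were deposited as log2 values, unshrunk. The deposited test score is the Wald statistic. The authors deposited DESeq2's p-values, the adjusted ones after independent filtering, which left 3638 of 8606 lncRNAs and 466 of 3359 tRNA entries tested. 1 lncRNA row without a name (1.62e-05% of the summed level) and 1 snoRNA row (at 0) were left out.

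Calls were taken as deposited (adjusted p under 0.05), as the design foresaw for tables without values per library. Depth per library is known only as size factors. Each deposited mean is a sum of whole reads times 6 unit levels. Sets of reads were kept where 1 set alone, in the range searched, matched the level and a 2-group negative binomial fit matched the fold change. That range lay around the group levels implied by the deposited fold change and was widened only where no set was found. Another set outside it, with more spread within a group, would have been missed. The solved reads of the 32 called lncRNAs matched the deposited level within 1.44e-12 and the fold change within 2.69e-06. Errors of the fold change were larger in some other features, such as 1.73e-05 for Miat. A close match was the condition for keeping a set, so it is not a separate check of the reads. For the 4 uncalled lncRNAs read mostly in 1 library, the level alone was used. The same holds for some snoRNAs and snRNAs of low mean level, Gm26180 among them. The method was tested on simulated data at low mean levels only, so its accuracy at the higher levels used here was not tested. Reads were sought up to a mean level of 1000 for called lncRNAs, and only to lower levels for all other features. Python 3.11.15, numpy 2.4.6, pandas 2.3.3 and scipy 1.17.1 were used.

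Named features are called ones with the largest fold changes or smallest p, those called in both kinds of library, the most abundant, and members of the lists; some are left out. The members, lists and markers were chosen with earlier results of these data known. Alternatives were other families for the p-value adjustment, a level minimum, a minimum fold, a t reference, a threshold of 0.1, centring, and leaving out libraries.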

Additional observations from a re-analysis of the deposited data

Results flagged for a closer look

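In 23 lncRNAs the log2 fold change in liver differed from the weighted mean of brain, heart, kidney and spleen by the test of that difference, of 4554 tested (0.505%). All values here are liver minus the other organs on the log2 scale. The lower liver values were those of Gm31121 (-3.19), Gm12718 (-3.12), F730035M05Rik (-2.07), Gm11280 (-1.95), Gm5893 (-1.89), Gm50044 (-1.78), Gm21989 (-1.52), Gm41668 (-1.37), 4930534D22Rik (-1.30), Gm40787 (-1.29), A430088P11Rik (-1.26), Gm30124 (-1.23), 0610040F04Rik (-1.10), Gm50323 (-1.06) and Gm47465 (-1.03). The higher ones were those of 4930402D18Rik (2.93), 4933421A08Rik (2.44), Gm22146 (2.16), Gm32540 (1.56), 9030619P08Rik (1.5003) and B930025P03Rik (1.203).

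D830013O20Rik (-2.003) and Gm48591 (-0.88), named after their values were seen, also differed between organs without being called in liver. D830013O20Rik was at -1.54 ± 0.49 (SE, adjusted p 0.115) in liver of the authors' deposited table and at 0.46 ± 0.12 (SE) over the other organs. Gm22146 was the 1 lncRNA of the 23 called in opposite directions in liver and another organ, heart. No test was made here for a library that stands apart in a group of 3. DESeq2 gave no p to 11 of the 8617 liver lncRNAs with reads. Gm19951 was 1 of these, at a mean level of 355950 and -2.39 ± 1.59 (SE) in the authors' deposited table.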

How the results depend on the processing

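Changes of adjustment, threshold, level, least fold or reference distribution leave the deposited fold changes as they are, so only the calls could move. Leaving out a library was run for 32 lncRNAs and for 5 tRNA entries that fell. Their groups do not overlap, so only the size could move. These features were chosen by their test, and reads of few uncalled ones were solved. The share of all features without overlap is therefore unknown. Referred to a t distribution with 4 degrees of freedom, 0 of the 37 lncRNAs and 0 of the 28 tRNA entries were called. Adjustment over all features with a p, over the 4 liver tables or over the lncRNAs of 5 organs left 31, 31 and 30 lncRNAs; Gm44751, Gm17035, A230005M16Rik, Gm27252, Gm16170 and Cyp2c53-ps were lost in each, and Gm11419 in the last. For tRNA entries these gave 14 (13 that rose, 1 that fell), 13 and 0, and counting equal values once, an alternative chosen after seeing the data, gave 15. These losses follow from the construction: more tests, fewer entries, or a reference with wider tails. The count of lncRNAs was 35 at a level of 10 or more, 31 with a log2 fold change of at least 1, 51 at a threshold of 0.1 and 35 after centring, 34 of them shared. No snoRNA or snRNA was called under any of these. The 23 differences between organs became 16 with an unweighted mean and 19 without a minimum level, and that between kinds of library stayed at 0.

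Leaving out each library in turn, the log2 ratio of means ranged from -3.65 to -2.93 for Gm31121, from 1.51 to 2.00 for Gm32540, from -2.83 to -1.76 for BC049987, from 2.20 to 3.75 for 4930402D18Rik, from 1.82 to 2.94 for 4933421A08Rik and from -2.93 to -1.64 for Gm44507. Counts of calls without a library were not run, since reads were solved for selected features only. No paired analysis was possible because the tables hold no values per mouse and solved reads cannot be tied to a mouse or a set of brothers. At a level of 10 or more the median SE was 0.35 for lncRNAs, 0.55 for snoRNAs, 0.64 for snRNAs and 0.55 for tRNA entries.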
